A study of Homo sapiens with 7 samples.

Results

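The bile acid synthesis and transport genes were examined in HepG2 cells, an established human liver cancer line. Members were the entries of the expression table whose gene column held one of the listed symbols, and all 10 were found among 30032 loci. They were the synthesis enzymes CYP7A1, CYP8B1 and CYP27A1, the canalicular exporters ABCB11, ABCB4 and ABCC2, the uptake carriers SLC10A1, SLCO1B1 and SLCO1B3, and the nuclear receptor NR0B2. The study mapped nucleosomes by native MNase-Seq, 5 histone marks by ChIP-Seq (H3K4me3, H3K9ac, H3K27ac, H3K27me3 and H3K9me3) and mRNA by RNA-Seq. There were 7 samples, 1 per assay, of the same cell line, with no treatment, genotype or time named. The RNA-Seq values were in 2 columns of FPKM (fragments mapped to a transcript, scaled to its length and to the depth of the library), called run 1 and run 2 here and counted as 1 replicate, since no source used here says whether they are separate cultures. No P value was therefore computed, and every comparison is a description of these samples. HepG2 is a single tumour-derived line, so the values stand for neither liver tissue nor primary hepatocytes.

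Bile acids are made from cholesterol in hepatocytes, taken back up from portal blood across the sinusoidal membrane and pumped into bile across the canalicular membrane. Synthesis runs through a classic pathway, which starts with CYP7A1, and an alternative pathway, which starts with CYP27A1. Bile acids hold their own synthesis in check through the receptor NR1H4 (FXR), which induces NR0B2 (SHP), a repressor of CYP7A1. H3K4me3, H3K9ac and H3K27ac mark active promoters, H3K27ac also marks enhancers, H3K27me3 marks Polycomb-silenced genes and H3K9me3 marks heterochromatin. These first 3 marks are called activation marks here, and a nucleosome position holding all of them is called trivalent.

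The promoters of 4 members are shown because their base composition spans the range seen among the members and because the data below differ between them. Each is the 250 bases before the transcription start in RefSeq (GRCh38.p14), 5′ to 3′ in the direction of transcription, at chr2:218781897-218782146, chr10:99782390-99782639, chr12:21130944-21131193 and chr12:20810455-20810704, all on the + strand. Capitals mark matches on either strand to the TATA box core TATAAA, to the nuclear receptor element AGGTCA, to its longer form CAAGGTCA, which contains the shorter one, to the HNF1 core GTTAAT, or to the CCAAT box. The search covered 300 bases, from 250 before the start to 50 after it. Marks below were counted from the listed hg19 starts, which may not be these RefSeq starts.
CYP27A1: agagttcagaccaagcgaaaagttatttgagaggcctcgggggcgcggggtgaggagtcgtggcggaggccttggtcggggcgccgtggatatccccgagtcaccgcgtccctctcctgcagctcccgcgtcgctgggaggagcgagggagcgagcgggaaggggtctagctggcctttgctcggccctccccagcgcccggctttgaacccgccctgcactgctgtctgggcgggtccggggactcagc
ABCC2: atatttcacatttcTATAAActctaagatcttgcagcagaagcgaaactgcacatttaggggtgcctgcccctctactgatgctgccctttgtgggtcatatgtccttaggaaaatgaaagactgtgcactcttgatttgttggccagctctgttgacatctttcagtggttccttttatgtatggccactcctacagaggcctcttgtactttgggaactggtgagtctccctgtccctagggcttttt
SLCO1B1: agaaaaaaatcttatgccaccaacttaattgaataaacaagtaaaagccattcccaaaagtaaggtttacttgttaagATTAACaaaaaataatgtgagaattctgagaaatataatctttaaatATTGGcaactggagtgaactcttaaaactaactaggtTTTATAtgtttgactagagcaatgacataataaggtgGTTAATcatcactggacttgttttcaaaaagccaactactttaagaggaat
SLCO1B3: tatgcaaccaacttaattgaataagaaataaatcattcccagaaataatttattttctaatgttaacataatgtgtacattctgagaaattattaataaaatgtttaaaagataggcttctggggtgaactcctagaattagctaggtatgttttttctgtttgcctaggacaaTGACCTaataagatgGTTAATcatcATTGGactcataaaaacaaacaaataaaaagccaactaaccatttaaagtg

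RefSeq promoters matched 6 of the members, and CYP7A1, CYP8B1, ABCB4 and NR0B2 were not matched. Over the 300 bases the CYP27A1 promoter was 68.7% G and C and held 29 CpG, against a median GC content of 58.7% over 35116 RefSeq promoters. The ABCC2 promoter was 45% G and C and held 1 CpG, and ABCB11 had the same GC content with 3 CpG. SLC10A1 lay between, at 52.3% and 3 CpG. Both SLCO1B promoters were AT-rich and held no CpG: SLCO1B1 was 31.3% G and C and SLCO1B3 30.0%, at percentiles 1.64 and 1.03 of all promoters. GTTAAT, a core of the sequence bound by HNF1 factors, was found close to the start in both, at -51 in SLCO1B1 and -61 in SLCO1B3, and once more at -172 on the opposite strand in SLCO1B1. GTTAAT occurred in 6.88% of all promoters, and more than once in 0.527%. TATAAA occurred in 11.5% of promoters, AGGTCA in 13.8%, CAAGGTCA in 1.28% and CCAAT in 34.6%. These 2 promoters had 64.8% identity in a pairwise alignment (221 of 341 columns), where the other 14 pairs of members ranged from 40.2% to 50.7%. A match to these letters is a description of the sequence and not a bound site.

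The expression of the members fell into 2 ranges, with ABCB4 between them. ABCC2, NR0B2 and CYP27A1 had FPKM of 91.4, 75.1 and 74.5 (means of both runs), and these 3 genes carried 96.8% of the summed FPKM of the members. ABCB4 stood at 5.21, and the other 6 members stood below 1, from 0.777 for SLCO1B1 down to 0.0611 for ABCB11. Thus 4 of 10 members reached an FPKM of 1, against 47.7% of the 13265 named genes with their own coordinates and symbol that served for comparison. An FPKM of 50 was reached by 3 of 10 members, against 6.56% of those genes. The median FPKM was 0.766 for the members and 0.591 for all of these genes. The runs of neighbours in the order overlapped for NR0B2 and CYP27A1 and for SLCO1B1 and CYP8B1, so these pairs did not differ beyond the spread between runs, and the runs of the other neighbours did not overlap. Of genes with FPKM from 0.2 to 1, the runs differed by a median of 0.30 on the log2 scale, and the 90th percentile was 0.89 (n = 976), so the order within the low range rests on small values.

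**Figure D1:**
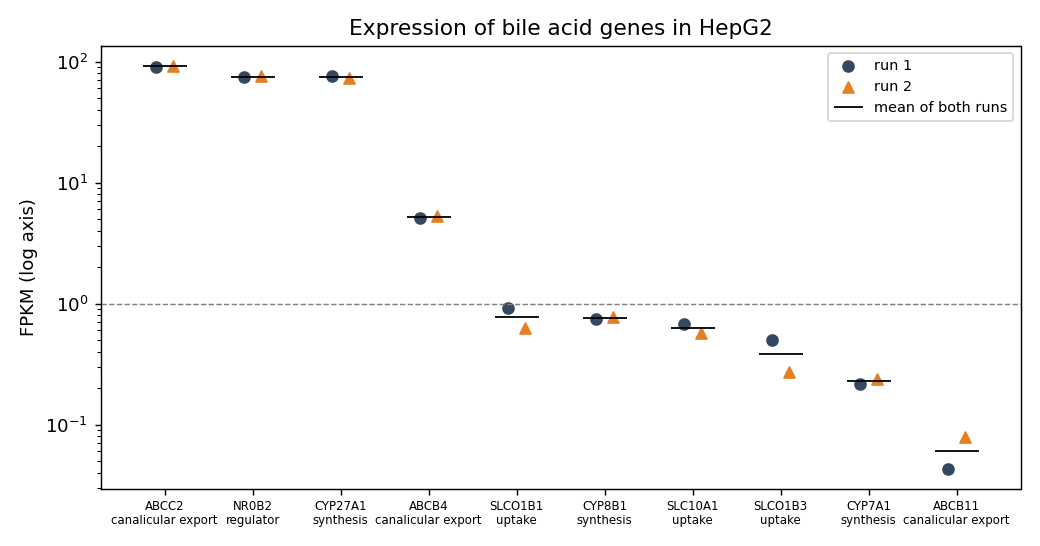
FPKM of each member in run 1 and run 2 on a log axis, in order of the mean, with a dashed line at an FPKM of 1 and a bar at the mean of both. ABCC2, NR0B2 and CYP27A1 lay between 73.6 and 91.8, and 6 members lay below 1 in both runs.

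Hepatocyte identity was checked first with 8 hepatocyte markers, and 8 of 8 had an FPKM of at least 1, from 56.6 to 10011 for ALB, the serum albumin gene. The oncofetal liver genes AFP and GPC3 had 3798 and 1331. Of the cholangiocyte markers 3 of 5 reached 1, namely KRT19 (110), EPCAM (96.9) and SOX9 (39.8), while KRT7 was at 0.109 and CFTR was listed at 0. Intestinal markers reached 1 in 3 of 4 genes, endothelial markers in 0 of 3, blood markers in 1 of 3 and stellate markers in 1 of 3. Of all genes for comparison 47.7% reached 1. The blood marker was CD68, whose entry lists 7 symbols, and the stellate marker was ACTA2, which shares its coordinates with other loci. The part of these markers in the values of the members was not tested.

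Histone marks were counted at nucleosome positions over each locus and 10 kb on either side. These windows held 3839 positions, of which 101 carried at least 1 mark (2.63%, exact Clopper-Pearson 95% interval 2.15 to 3.19%; all intervals cover counting error only). The intervals treat positions as independent, though marked positions often stood in groups, so they are likely too narrow. Over the whole genome the deposited lists mark 1.43% of positions, and an unmarked position is one with no peak in these lists. Of the 101 marked positions 23 were nearer to the TSS of another gene and 78 were not. Genes for comparison were counted without leaving such positions out. Activation marks made up most of the 101, at 82 positions in 8 of 10 members (71.3% of all genes), and 37 positions were trivalent. H3K27ac was found at 65 positions, H3K4me3 at 53, H3K9ac at 42, H3K9me3 at 13 and H3K27me3 at 6. Members with at least 1 position numbered 8 of 10 for H3K27ac (58.2% of all genes), 5 of 10 for H3K4me3 (65.5%) and 5 of 10 for H3K9ac (65.5%). Both counts of 5 include SLC10A1, whose positions with H3K4me3 or H3K9ac all lay at the TSS of SRSF5. For H3K27me3 they numbered 4 of 10 (30.7%), and for H3K9me3 3 of 10 (28.9%). At least 1 marked position of any kind was present at 9 of 10 members (87.1%). The median share of positions marked was 2.26% for the members, from 0 to 15.7%, and 2% for all genes. The median locus was 55.8 kb long for the members and 23 kb for all genes, so windows of members held more positions. The density of positions was alike, with medians of 5.20 and 5.19 per kb.

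**Figure D2:**
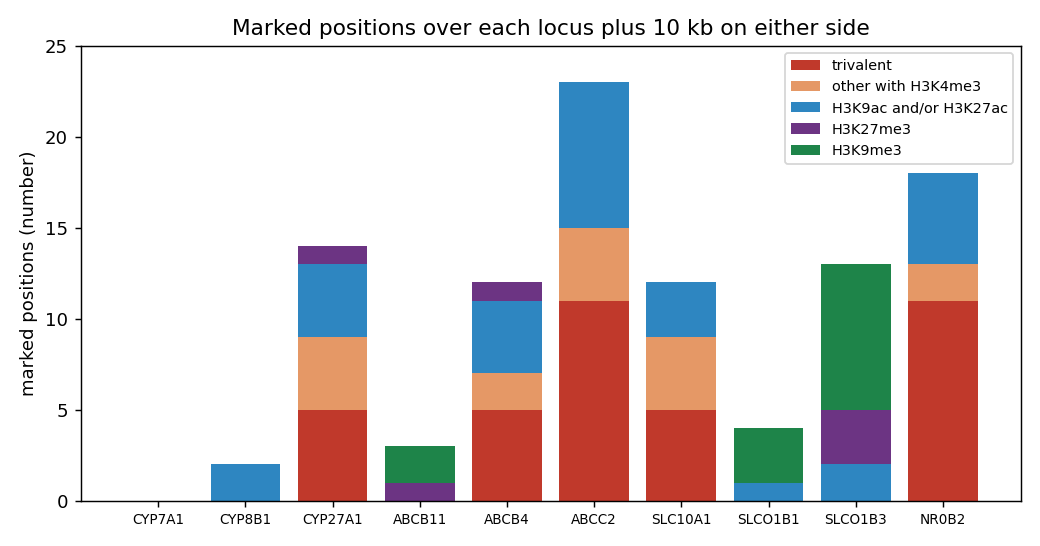
Number of marked nucleosome positions over each locus and 10 kb on either side, stacked by the set of marks at the position. Of the 12 at SLC10A1, 9 lay at the TSS of SRSF5. ABCC2 had 23 marked positions, NR0B2 18 and CYP7A1 none, and H3K9me3 was found at SLCO1B3, SLCO1B1 and ABCB11.

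Within 2 kb of the transcription start (TSS), the members separated with their expression. At least 1 trivalent position lay there in 4 of 10 members, against 42.9% of all genes. These were ABCC2, NR0B2, CYP27A1 and ABCB4, the same 4 that reached an FPKM of 1. Among all genes, a trivalent position near the TSS was present at 84.6% of those with an FPKM of at least 1 and at 4.84% of those below. By mark, H3K4me3 was present near the TSS of 4 of 10 members (54.1% of all genes), H3K9ac of 4 (50.8%), H3K27ac of 6 (44.8%), H3K27me3 of 1 (9.47%) and H3K9me3 of 0 (2.41%). Any activation mark was present near the TSS of 6 of 10 members (56.3% of all genes, or 93.6% of those with an FPKM of at least 1 and 22.2% of those below). The additional 2 were CYP8B1 and SLCO1B3, which had H3K27ac and no H3K4me3 there, a state seen at 1.13% of all genes and at 1.24% of genes with an FPKM under 1. No mark of any kind lay within 2 kb of the TSS of CYP7A1, ABCB11, SLC10A1 and SLCO1B1, 4 of 10 members (36.2% of all genes).

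**Figure D3:**
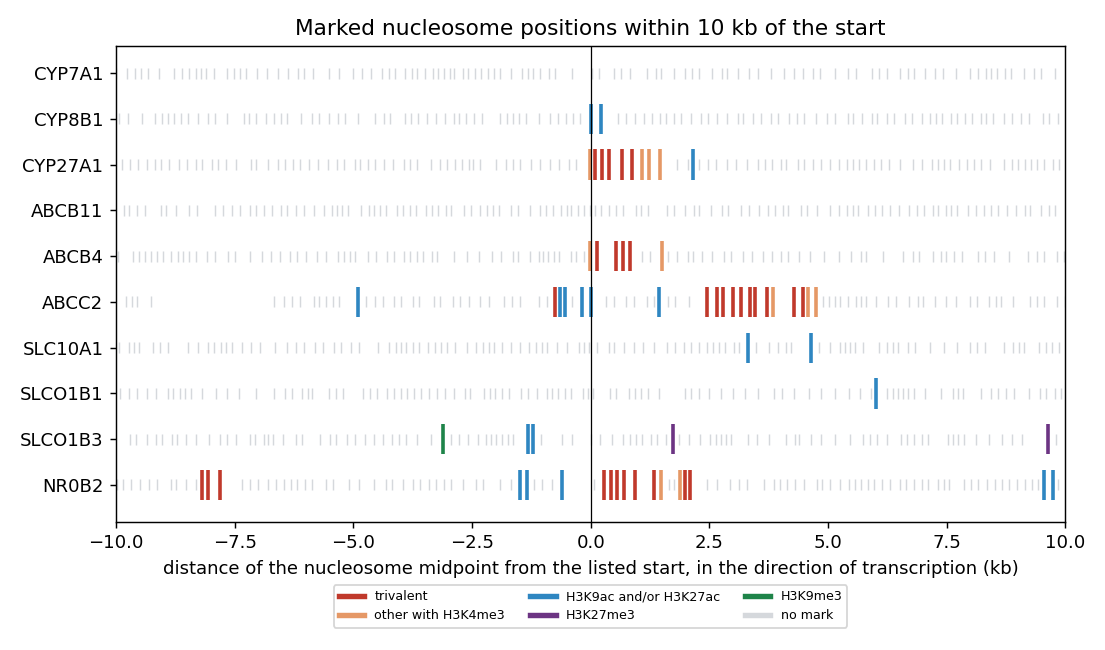
Nucleosome positions around the TSS of each member, by distance from the listed start in the direction of transcription, coloured by the set of marks, with unmarked positions in light grey. NR0B2, CYP27A1 and ABCB4 had runs of trivalent positions just downstream of the listed start. In ABCC2 such a run began 2457 bp past the listed start, which may not be its RefSeq start.

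Of the synthesis enzymes, CYP27A1 alone was highly expressed. CYP7A1, the rate-limiting enzyme of the classic pathway (chr8:59402737-59412720, hg19, - strand), had FPKM of 0.216 and 0.240. CYP8B1, the sterol hydroxylase needed to make cholic acid (chr3:42913684-42917633, - strand), had 0.740 and 0.770. CYP27A1, the mitochondrial sterol hydroxylase that opens the alternative pathway (chr2:219646372-219684360, + strand), had 75.5 and 73.6. CYP27A1 was thus 98.7-fold above CYP8B1 and 327-fold above CYP7A1, and the runs of these genes were far apart. CYP8B1 was 3.31-fold above CYP7A1, also without overlap of the runs.

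No mark was called at any of the 156 positions in the CYP7A1 window (upper 95% limit 2.34%), as at 12.9% of all genes and at 24.0% of genes with an FPKM under 1. CYP8B1 had 2 marked positions of 129, both with H3K27ac alone and both just past the TSS, at 17 and 217 bp. CYP27A1 had 14 of 325 (4.31%, 2.37 to 7.12%). Its marks opened with H3K4me3 at -22 bp, went on with 5 trivalent positions at 95, 235, 385, 655 and 865 bp, then H3K4me3 with H3K9ac at 1085 bp and H3K4me3 alone at 1235 and 1460 bp. This run covered chr2:219646280-219647901. A second group, at 24230, 24750 and 25105 bp within the gene, had H3K27ac alone. The single H3K27me3 position lay 8351 bp beyond the gene's end and was nearer to the TSS of another gene.

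The canalicular exporters spanned the whole range of the members. ABCC2 moves bilirubin glucuronides and other organic anion conjugates into bile (chr10:101540135-101613651, + strand), and its FPKM were 90.9 and 91.8. ABCB4 carries phosphatidylcholine to the outer leaflet of the canalicular membrane (chr7:87030944-87105390, - strand), and its FPKM were 5.08 and 5.34. ABCB11, the bile salt export pump (chr2:169779449-169887833, - strand), had 0.0434 and 0.0788. ABCC2 was 17.5-fold above ABCB4, and ABCB4 was 67.7-fold to 117-fold above ABCB11 depending on the run, a ratio that rests on the lowest value among the members.

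ABCC2 had the most marked positions of the members, 23 of 437 (5.26%, 3.37 to 7.79%), and all 23 carried an activation mark. Its trivalent positions numbered 11, a count reached by 1.83% of all genes, and 10 of them lay in a block of 13 H3K4me3 positions at chr10:101542522-101544941. That block began 2457 bp inside the listed gene and ended at 4737 bp. Closer to the listed start, at -531, -193, 7 and 1434 bp, there was H3K27ac alone, with H3K9ac beside it at -641 bp and a single trivalent position at -743 bp. ABCC2 therefore had 1 trivalent position within 2 kb of its listed start. That count, and its place among other genes, rest on where the start is put. Of genes with an FPKM of at least 50, 12.9% had 1 or none there, 37.6% had 5 or more as CYP27A1 and NR0B2 did, and the median was 4. The listed ABCC2 locus is 3562 bp longer than its RefSeq gene on GRCh38, so the start used here may not be the RefSeq start, and the loci were not placed on 1 build. The same holds for CYP27A1, whose listed locus is 4842 bp longer, and for ABCB11 and ABCB4, whose lengths differ by -7550 and -35685 bp. A difference in length does not show which end of a locus differs. For the other 6 members the lengths differed by 1468 bp or less. Further H3K27ac positions stood at 68157 and 68772 bp, near the 3′ end.

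ABCB4 had 12 marked positions of 491 (2.44%, 1.27 to 4.23%). Positions at 124, 524, 691 and 829 bp were trivalent, with H3K4me3 and H3K9ac at -11 bp and H3K4me3 at 1499 bp. A second acetylated group stood inside the gene, with H3K27ac at 10454 and 10869 bp, a trivalent position at 10989 bp and both acetyl marks at 11584 bp. The number of trivalent positions near the TSS was 4 for ABCB4 and 5 for CYP27A1, though the FPKM of these genes differed 14.3-fold. ABCB11 had 3 marked positions of 716 (0.419%, 0.0865 to 1.22%) and none with an activation mark. Of these, 2 had H3K9me3, at 25802 and 99162 bp, and 1 had H3K27me3, at 90747 bp. The H3K27me3 position and the H3K9me3 position at 99162 bp were nearer to the TSS of another gene, and 1 marked position is left without them.

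**Figure D4:**
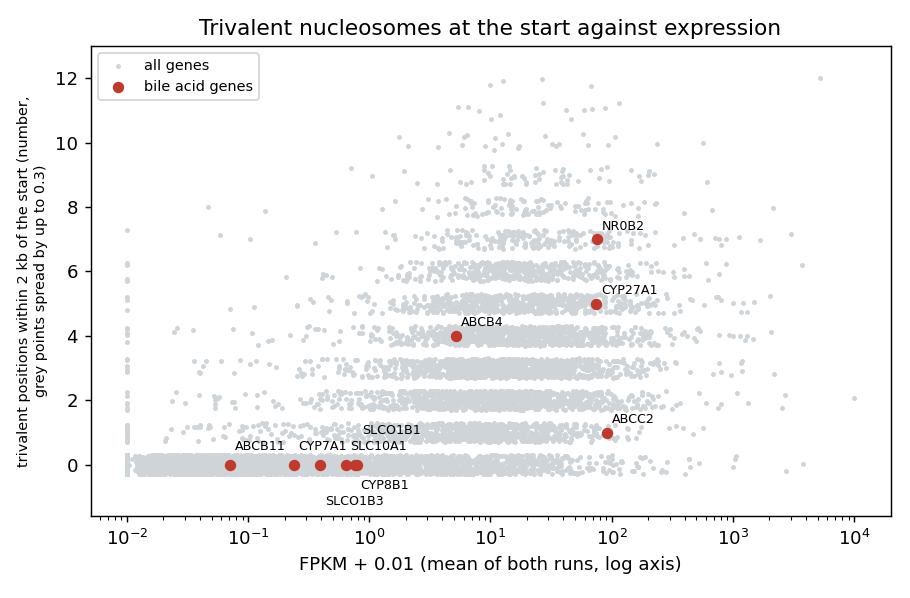
Trivalent positions within 2 kb of the TSS against FPKM + 0.01 on a log axis, for all genes (grey, spread vertically to show overlapping points) and for the members (red, named). NR0B2 had 7, CYP27A1 5, ABCB4 4 and ABCC2 1, and the 6 members below an FPKM of 1 had none. Counts are from the listed starts, which may not be the RefSeq starts of ABCC2, CYP27A1, ABCB4 and ABCB11.

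The uptake carriers were all below an FPKM of 1. SLC10A1, the sodium-taurocholate cotransporter (chr14:70242552-70264006, - strand), had FPKM of 0.683 and 0.574. SLCO1B1, an organic anion transporter (chr12:21284128-21392730, + strand), had 0.927 and 0.627. SLCO1B3, its close relative (chr12:20963638-21071312, + strand), had 0.497 and 0.273. The runs of SLCO1B1 and SLC10A1 overlapped. SLCO1B1 was 2.02-fold above SLCO1B3 and SLC10A1 was 1.63-fold above it, both without overlap of the runs. Run 2 was below run 1 by 0.84 on the log2 scale for SLCO1B3 and by 0.56 for SLCO1B1, within the 90th percentile of genes at this level.

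The windows of these carriers held different marks. SLC10A1 had 12 marked positions of 223 (5.38%, 2.81 to 9.21%), but 9 of them, with H3K4me3 at each and 5 trivalent, lay downstream of the gene. They stood 28955 to 30638 bp from its start, which is 7500 to 9183 bp beyond its end. That place is at the TSS of SRSF5, a splicing factor gene whose higher entry had FPKM of 116 and 113. A second SRSF5 entry with the same coordinates had 5.51 and 6.69, and LOC100289511, listed over the same span on the other strand, had 0.259 and 0.239. Inside SLC10A1 there were 3 positions, at 3320, 4644 and 18175 bp, each with H3K27ac alone. SLCO1B1 had 4 of 622 (0.643%, 0.175 to 1.64%), of which 3 had H3K9me3, between 18641 and 19219 bp, and 1 had H3K27ac, at 6014 bp. At least 3 H3K9me3 positions were present at SLCO1B1 and SLCO1B3, 2 of 10 members, and at 6.76% of all genes. The SLCO1B1 locus is 109 kb long, and its H3K9me3 share of 0.482% (0.0996 to 1.40%) stood at percentile 89.5 of all genes. The interval holds the share over all positions of the genome, 0.243%.

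SLCO1B3 carried repressive marks at scattered positions within its locus and upstream of it. Of 625 positions 13 were marked (2.08%, 1.11 to 3.53%), with H3K9me3 at 8, H3K27me3 at 3 and H3K27ac at 2. At least 8 H3K9me3 positions were found at 145 genes, 1.09% of all, and the H3K9me3 share of 1.28% (0.554 to 2.51%) stood at percentile 98.4 of all genes. The count, unlike the share, does not allow for the SLCO1B3 window of 128 kb, where the median locus of all genes was 23 kb. The first H3K9me3 position lay upstream at -3111 bp, then others followed at 31254, 57154 and 61874 bp, and 4 stood between 93809 and 97784 bp. H3K27me3 lay at 1739, 9624 and 19379 bp. Both H3K27ac positions lay upstream of the TSS, at -1321 and -1216 bp, so SLCO1B3 had acetylation upstream and H3K27me3 downstream within 2 kb of its start. At least 1 position of each repressive mark was present at SLCO1B3 and ABCB11, 2 of 10 members (14.2% of all genes), and both loci are 108 kb long. Without positions nearer to another TSS, SLCO1B3 was the one member left with both.

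**Figure D5:**
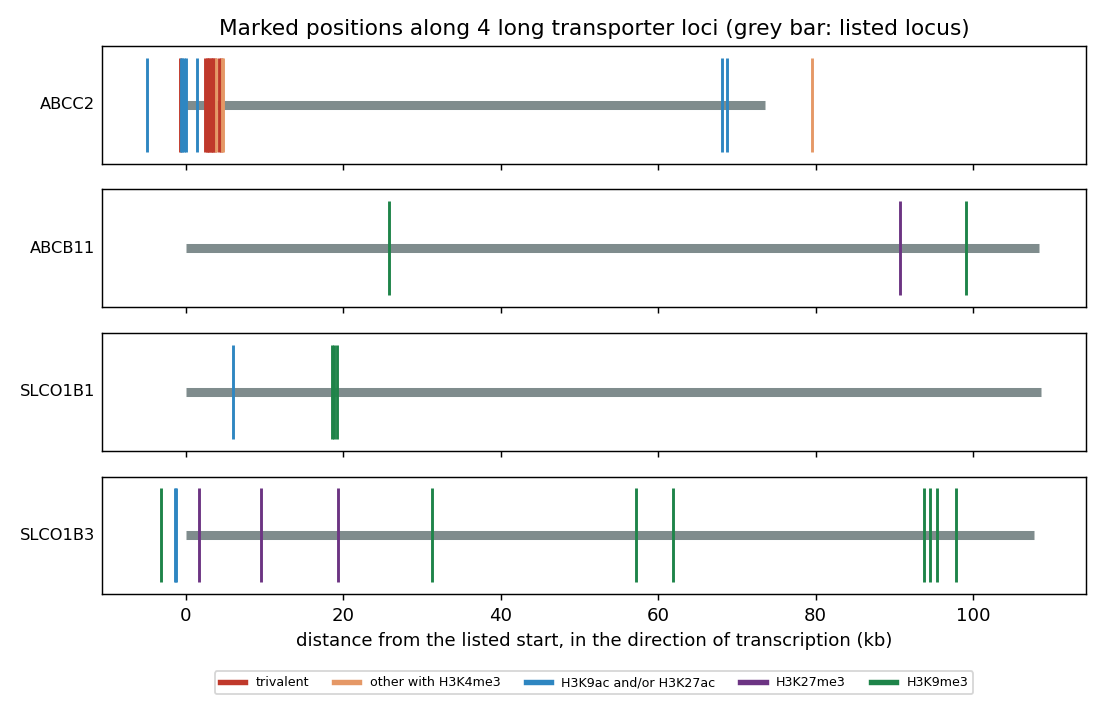
Marked positions (vertical lines, coloured by the set of marks) along 4 long transporter loci (grey bars) and 10 kb on either side, by distance in kb from the listed TSS in the direction of transcription. Most marks of ABCC2 stood around its first 5 kb, and H3K9me3 was at 8 positions in SLCO1B3, 3 in SLCO1B1 and 2 in ABCB11.

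NR0B2, the nuclear receptor without a DNA-binding domain that represses CYP7A1 (chr1:27237975-27240567, - strand), was the most densely marked member. Its FPKM were 74.0 and 76.2, and 18 of 115 positions were marked (15.7%, 9.55 to 23.6%), at percentile 99.6 of all genes. This share includes 5 positions nearer to another TSS. The NR0B2 window of 22.6 kb was the shortest of the members, so its rank by share is not independent of locus length. All 18 carried an activation mark and 11 were trivalent. Trivalent positions ran through the gene at 281, 426, 556, 694, 936, 1331, 1981 and 2101 bp, with H3K4me3 alone at 1481 and 1876 bp, so that the block spanned most of the 2.59 kb locus. Within 2 kb of the TSS 7 were trivalent, where the 870 genes with an FPKM of at least 50 had a median of 4. The 90th percentile of these genes was also 7, and 6.21% of them had 8 or more, which NR0B2 did not reach there. Upstream, at -604, -1344 and -1484 bp, there was H3K27ac alone. The midpoints on either side of the TSS were 678 bp apart, the widest such gap among the members, whose narrowest was 100 bp at ABCB11. The other 3 trivalent positions, at -7814 to -8194 bp, lay at the start of NUDC, a neighbour on the opposite strand with FPKM of 98.7 and 99.6. Without the 5 positions nearer to another TSS, NR0B2 had 13.

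H3K27ac without the other marks was the most frequent state that did not include H3K4me3. It was found at 26 positions in 8 of 10 members, the exceptions being CYP7A1 and ABCB11, against 31% of all genes, whose windows were shorter at the median. Together with H3K9ac positions lacking H3K4me3 there were 29, of which 12 lay within 2 kb of a TSS and 17 beyond. H3K4me3 alone was found at 14 positions.

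The other genes of the pathway were taken from lists of enzymes, transporters and regulators. Of 13 other synthesis enzymes 8 reached an FPKM of 1, the highest being SCP2 (106) and HSD17B4 (84.0), which act in peroxisomal side chain shortening, and HSD3B7 (28.9), a steroid dehydrogenase of both pathways. The lowest were CYP7B1 (0.173), the hydroxylase that follows CYP27A1, and CYP46A1 and CH25H, listed at 0 in both runs. Near the TSS, 6 of the 8 expressed enzymes and 0 of the 5 others had a trivalent position. Among all genes for comparison these shares were 84.6% of expressed genes and 4.84% of the others. An FPKM of 1 was reached by 47.7% of the genes for comparison and by 51.4% of all named loci. Of 11 other transporters 9 reached 1, led by ABCB1 (23), ABCC3 (13.9) and SLC51B (13.9, listed as OSTBETA), and ABCC3 and SLC51B export bile acids across the basolateral membrane. The lowest were SLC51A (2.06, listed as OSTalpha), FABP6 (0.0744) and SLC10A2, the ileal bile acid transporter, listed at 0. As 7 of these 11 share coordinates with other loci, marks near the TSS are given for the other 4. Of these, 1 of 2 expressed genes (ABCC3) and 0 of 2 others had a trivalent position there. The expressed SLCO2B1 (5.22), an uptake carrier named after its value was seen, had no mark near its listed start, which was not compared with RefSeq.

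Of 11 regulators 8 reached an FPKM of 1 (47.7% of all genes). FGFR4 (89.1) and KLB (61.7), which together form the receptor for FGF19, and HNF4A (64.6) were highest. NR1H4, the bile acid receptor, had 36.2 and 36.8 with 5 trivalent positions near its TSS, and was named after its value was seen. The lowest were NR5A2 (0.336), a nuclear receptor that acts on CYP7A1, GPBAR1 (0.170), the membrane bile acid receptor, and FGF19 (0.0621), the hormone that FGFR4 binds. With coordinates of their own, 4 of 4 expressed regulators and 0 of 3 others had a trivalent position near the TSS. Of all genes, 84.6% of the expressed and 4.84% of the others had it. Of the hepatocyte markers, all expressed, 3 of 7 with their own coordinates had a trivalent position there. TF (1006) and FGB (56.6) had no mark near the listed start and SERPINA1 (1061) had no trivalent position there, all named after their values were seen. Locus lengths were compared with RefSeq for the members alone, so the listed starts of these genes may not be their RefSeq starts. Of expressed oncofetal genes 1 of 2 had a trivalent position, of cholangiocyte markers 1 of 2 and of intestinal markers 2 of 2.

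Among 13264 other genes, those nearest to the 3 members with the most marked positions were found by the distance over 6 measures, the 5 mark counts and FPKM, each on a log2 scale. Nearest to ABCC2 were ASS1 (distance 0.29), SLC1A5 (0.32) and NUDC (0.37). The window of NUDC takes in the H3K4me3 block of its neighbour NR0B2, so its counts include marks of that member. Within 2 kb of its own TSS, NUDC had 3 marked positions. For NR0B2 they were PCYOX1 (0.22), SLC25A33 (0.25) and LSM4 (0.29), and for CYP27A1 they were HSPA4 (0.20), PCNP (0.51) and GLRX3 (0.51). HSPA4, for instance, had 8 H3K4me3, 7 H3K9ac, 8 H3K27ac and 1 H3K27me3 positions, where CYP27A1 had 9, 7, 8 and 1.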

How the data were processed

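The authors called nucleosome positions from native MNase-Seq and kept ChIP-Seq peaks at them under limits on P and FDR (both 0.01) and on enrichment (4-fold). The submitters' notes name hg19, BWA, Bowtie, TopHat2 2.1.0 and HOMER 4.7. They deposited 14217405 positions (140 bp from start to end) and 319086 peaks as coordinates with no counts or scores, so the read depth behind each position is not known here. Each peak, reaching 3 bp beyond a position, was assigned to the position it overlapped most, which carried the same identifier for 319086 of them. The authors deposited RNA-Seq as FPKM in 2 columns, summing to 857059 and 982212. The columns of p-values, q-values and fold changes in the same table hold the authors' own comparison of both columns and were not used.

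FPKM are means of both columns, and log2 values use a pseudocount of 0.01. A position belonged to a window if its midpoint did. Starts came from the listed coordinates, with the strand from RefSeq (6 members) or from the order of locus numbering (4 members). Both gave the same strand for 8396 of 8425 genes (99.7%). Genes for comparison were the 13265 with their own coordinates and one symbol. The text names all members, genes whose TSS lies in a member's window, the 3 highest and 3 lowest of each pathway list, and the 3 nearest genes of 3 members. The members and lists were chosen with earlier results of these data known. Alternatives were each run alone, other FPKM limits, a pseudocount of 1, flanks of 0, 5 and 20 kb, TSS windows of 1 and 5 kb, any overlap, and all named loci. Counting was tested on simulated data. Software was biopython 1.88, matplotlib 3.10.9, pandas 2.3.3, numpy 2.4.6, scipy 1.17.1 and Python 3.11.15.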

Additional observations from a re-analysis of the deposited data

How the results depend on the processing

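No paired analysis was possible because each assay had 1 sample and no test was run. The number of members called expressed was 4 in either run alone and at an FPKM limit of 5, but 9 at a limit of 0.1. The median log2 FPKM of the members, -0.37 with a pseudocount of 0.01, was 0.82 with a pseudocount of 1, which raises every low value. Members with H3K27me3 numbered 4 with flanks of 10 or 20 kb, 2 with no flank, 2 with a flank of 5 kb and 1 without positions nearer to another TSS. The count of 4 members with a trivalent position near the TSS and of 3 members with H3K9me3 held under every alternative run. Members with any activation mark near the TSS numbered 6 within 2 kb, 5 within 1 kb and 7 within 5 kb. SLCO1B3, with H3K27ac at -1321 and -1216 bp, was not counted at 1 kb. Marked positions over all members ranged from 71 with no flank to 141 with 20 kb. SLC10A1 went from 12 marked positions to 3 with no flank or 5 kb, 20 with 20 kb and 2 without positions nearer to another TSS. CYP7A1 went from 0 to 7 and CYP8B1 from 2 to 17 with 20 kb. ABCB11 had 6 with any overlap, and NR0B2 went from 18 to 10 with no flank. The any-overlap match near the TSS, the strand from numbering alone and the counts of members with H3K27me3 or H3K9me3 without positions nearer to another TSS were chosen after seeing the data. A stricter peak threshold could not be set, since the lists hold no scores. HepG2 is 1 line, no replicate samples were analysed here, and a position with no peak may carry a mark below the authors' thresholds.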

Other observations

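The stretch between SLCO1B3 and SLCO1B1, outside both windows, was counted in the same way (chr12:21081313-21274127, hg19, 193 kb). Of 958 positions 7 were marked (0.731%, exact Clopper-Pearson 95% interval 0.294 to 1.5%). None had an activation mark, 5 had H3K9me3 (0.522%, 0.170 to 1.21%) and 2 had H3K27me3. The one named locus within it, LST-3TM12, was listed with FPKM of 0 and 0.0361. The interval of the H3K9me3 share overlaps those of SLCO1B3 (0.554 to 2.51%) and SLCO1B1 (0.0996 to 1.40%). As these intervals treat positions as independent, the overlap is a description and not a test.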
